A study of Mus musculus with 9 samples.

Results

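The 10 genes described here code for parts of BMP and activin signalling: the BMP ligands Bmp2, Bmp4, Bmp7 and Bmp8b, the activin subunit Inhba, the receptors Bmpr1a, Bmpr2 and Acvr1c, the secreted BMP inhibitor Grem1 and the target gene Id1. They were chosen by name, with earlier results of these data known. All 10 were found among the 32285 gene identifiers of the count tables. RNA was sequenced from primary SVF cells (the stromal vascular fraction of adipose tissue, which holds the preadipocytes) of the subcutaneous white fat of wild-type mice aged 4 to 6 days. MIZ cells were differentiated toward adipocytes for 6 days with 25 µM MIZ (mizoribine, which blocks the IMPDH enzymes of guanine nucleotide synthesis), vehicle cells were differentiated for 6 days with DMSO, and undifferentiated cells were not induced, with 3 libraries per group, which the submitters call biological replicates. Both differentiated groups received insulin, dexamethasone and IBMX, and then insulin, troglitazone, rosiglitazone and T3. The cultures were not sorted, so each library is a mixture of the cell types that the fraction holds.

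BMPs and activins are secreted dimers of the TGF-β family. A dimer brings type II and type I receptor kinases together, and the type I receptor then phosphorylates SMAD1, SMAD5 and SMAD9 (for most BMPs) or SMAD2 and SMAD3 (for activins), which enter the nucleus with SMAD4. In adipose tissue, BMP2 and BMP4 are known for committing precursor cells to the fat lineage, BMP7 and BMP8B for thermogenic fat, and activin A, a dimer of the Inhba product, for keeping human adipose progenitors dividing and undifferentiated. ACVR1C, also called ALK7, is a type I receptor of mature adipocytes that is known for holding back lipolysis.

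Libraries held 33504937 to 43281818 counts in MIZ cells, 28760721 to 50262228 in vehicle cells and 42217231 to 55288455 in undifferentiated cells. Of all genes, 17173 had at least 5 counts in at least 3 libraries and were tested with edgeR's quasi-likelihood test, and a gene was called at a Benjamini-Hochberg adjusted p under 0.05. Levels are CPM, a gene's counts scaled to libraries of equal TMM-normalized size, and comparisons of levels between genes use CPM per kb of exon. The adipocyte markers Adipoq, Plin1, Fabp4, Cidec, Lep, Pparg, Cebpa and Lipe summed to 1010 to 1260 CPM in MIZ cells, 14400 to 15200 CPM in vehicle cells and 78.2 to 79.9 CPM in undifferentiated cells, although the labels call all 3 groups primary adipocytes. Cidec had 0 counts in undifferentiated cells, and Lep had 0 in MIZ and in undifferentiated cells. Vehicle replicate 1, the shallowest library, differed most from the other libraries of its group, and the number of the 10 genes called was the same without it in each comparison (6, 6 and 9).

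Of the 10 genes, 9 passed the filter on low counts. Bmp7 did not, and Bmp4, Bmp8b and Acvr1c passed it only through the groups where they were high. Between MIZ and vehicle cells 4 genes were higher (Inhba, Bmpr2, Bmpr1a and Id1) and 2 lower (Acvr1c and Bmp2), where 35.9% of all genes tested were called higher, 35.1% lower and 71.0% either way. Between vehicle and undifferentiated cells 2 were higher (Acvr1c and Grem1) and 4 lower (Bmp4, Inhba, Bmpr2 and Bmpr1a), beside 36.2%, 41.5% and 77.7% of all genes. Between MIZ and undifferentiated cells 7 were higher and 2 lower (Bmp4 and Bmp2), beside 33.7%, 33.3% and 67.0% of all genes. Having passed the filter only through the groups where they are high, Bmp4 and Bmp8b had to differ from the groups where they are low, so their values against undifferentiated cells are a description. The same holds for Acvr1c, with 0, 2 and 9 counts in undifferentiated cells. Without Bmp4 and Bmp8b, 2 were higher and 3 lower in vehicle than in undifferentiated cells, and 6 higher and 1 lower in MIZ than in undifferentiated cells. Acvr1c is still among the higher genes in both of these counts. The 3 comparisons share libraries, so they are not independent of one another.

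Promoter windows of RefSeq (GRCm38.p6, 250 bases before to 50 bases after the start) were matched for 7 of the 10 genes. They are shown for the 3 genes whose levels followed each other most closely over the libraries (Inhba, Bmpr1a and Bmpr2, below) and for Acvr1c, which had the largest difference between MIZ and vehicle cells. Capitals mark the SMAD box CAGAC, the GC-rich SMAD motif GGCGCC and the TATA box TATAAA, searched on both strands. The windows are chr13:16011601-16011900 (plus strand) for Inhba, chr14:34502497-34502796 (minus strand) for Bmpr1a, chr1:59764029-59764328 (plus strand) for Bmpr2 and chr2:58357709-58358008 (minus strand) for Acvr1c.
Inhba: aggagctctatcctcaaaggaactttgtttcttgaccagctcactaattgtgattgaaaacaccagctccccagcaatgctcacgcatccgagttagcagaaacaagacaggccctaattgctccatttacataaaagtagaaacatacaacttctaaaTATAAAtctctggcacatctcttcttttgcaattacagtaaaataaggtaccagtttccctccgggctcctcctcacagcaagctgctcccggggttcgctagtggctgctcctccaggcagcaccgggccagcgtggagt
Bmpr1a: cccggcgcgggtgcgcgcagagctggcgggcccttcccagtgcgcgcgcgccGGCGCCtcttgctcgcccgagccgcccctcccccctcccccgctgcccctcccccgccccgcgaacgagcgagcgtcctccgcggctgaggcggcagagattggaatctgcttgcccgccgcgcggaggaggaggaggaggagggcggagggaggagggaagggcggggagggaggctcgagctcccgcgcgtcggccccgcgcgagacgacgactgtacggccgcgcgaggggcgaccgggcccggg
Bmpr2: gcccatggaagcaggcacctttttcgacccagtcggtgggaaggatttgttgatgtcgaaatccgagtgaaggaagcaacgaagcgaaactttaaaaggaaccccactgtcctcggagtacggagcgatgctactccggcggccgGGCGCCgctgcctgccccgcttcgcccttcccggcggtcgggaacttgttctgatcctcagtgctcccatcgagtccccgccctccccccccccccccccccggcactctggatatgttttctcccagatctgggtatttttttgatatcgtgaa
Acvr1c: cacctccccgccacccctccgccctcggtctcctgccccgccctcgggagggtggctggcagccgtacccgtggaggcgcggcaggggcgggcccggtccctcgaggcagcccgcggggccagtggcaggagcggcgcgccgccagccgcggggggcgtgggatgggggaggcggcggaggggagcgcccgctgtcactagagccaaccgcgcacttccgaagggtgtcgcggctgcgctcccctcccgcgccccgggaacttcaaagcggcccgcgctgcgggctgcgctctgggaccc
The Inhba window held 47.7% G and C and the letters TATAAA starting 91 bases before the start, a match found in 13.6% of the 32851 promoter windows of the same length. The windows of Bmpr1a (79.3% G and C) and Bmpr2 (59.3%) each held 1 GGCGCC, which 11.9% of all windows hold, and the Grem1 window (chr2:113758599-113758898, minus strand) held 1 GGCGCC and 2 CAGAC, which 49.6% of all windows hold. The Bmp8b window (chr4:123104911-123105210, plus strand) held 1 CAGAC, starting 126 bases before the start, and the Bmp4 window held none of the 3 motifs. The Acvr1c window shown (79.0% G and C) held none of the 3 motifs, and neither did a second RefSeq window of the gene (chr2:58324758-58325057, minus strand, 50.3% G and C), which is not shown. None of the windows of these 7 genes held the AP-1 site TGANTCA (in 7.8% of all windows), the cAMP response element TGACGTCA (1.8%) or the TEAD motif GGAATG (14.7%). Such matches describe the letters only.

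**Figure D1:**
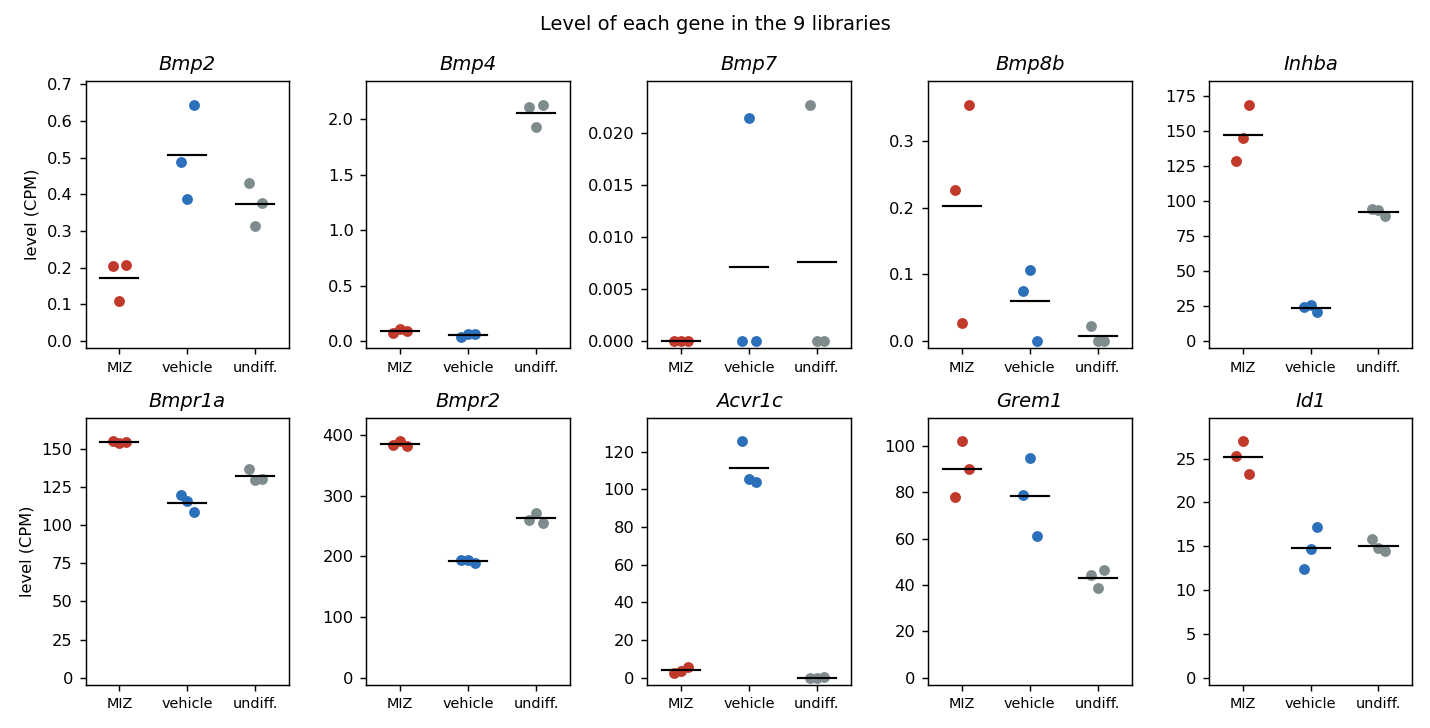
Level of each of the 10 genes in CPM (y axis, a separate linear scale per gene) in the 3 libraries of MIZ, vehicle and undifferentiated cells (points), with the group mean (line). Acvr1c stands at 104 to 125 CPM in vehicle cells and under 6 CPM in the other libraries, while Inhba stands at 129 to 169 CPM in MIZ cells, above every other library.

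Inhba codes for the subunit whose dimer is activin A. The gene (ENSMUSG00000041324) lies on chromosome 13 at 16011851 to 16031621 of GRCm38, plus strand, with 5 merged exons. It stood at 129, 145 and 169 CPM in MIZ cells, 24.2, 25.9 and 20.8 CPM in vehicle cells and 94.3, 93.9 and 89.4 CPM in undifferentiated cells. The 3 groups did not overlap, with MIZ cells highest and vehicle cells lowest. MIZ cells were 6.25-fold above vehicle cells (95% interval 5.32 to 7.34, log2 fold change 2.64 ± 0.105 SE, adjusted p = 2.11e-09) and also 1.60-fold above undifferentiated cells (0.67 ± 0.0968, adjusted p = 9.93e-05). Vehicle cells were 3.92-fold below undifferentiated cells (-1.97 ± 0.103, adjusted p = 1.37e-08).

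Inhbb, the other activin subunit gene expressed here, had the same order of groups as Inhba with a wider distance. It stood at 97.1, 98.9 and 99.97 CPM in MIZ cells, 4.24, 6.55 and 6.85 CPM in vehicle cells and 28.2, 25.4 and 22.4 CPM in undifferentiated cells. MIZ cells were 16.4-fold above vehicle cells (4.04 ± 0.139) and 3.90-fold above undifferentiated cells (1.97 ± 0.12, adjusted p = 1.31e-07). Per kb of exon, the levels of Inhba and Inhbb were 23.1 ± 3.18 and 23.2 ± 0.339 CPM in MIZ cells, 3.70 ± 0.402 and 1.38 ± 0.336 CPM in vehicle cells, and 14.5 ± 0.431 and 5.95 ± 0.680 CPM in undifferentiated cells (SD, n = 3). The ranges of both genes overlapped in MIZ cells and did not overlap in either other group. Inha, whose product joins a beta subunit to form inhibin, the antagonist of activin, had 62 counts in MIZ cells, 174 in vehicle cells and 415 in undifferentiated cells, and MIZ cells were below both (-1.43 ± 0.308 against vehicle cells, -2.38 ± 0.285 against undifferentiated cells).

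Bmp2 and Bmp4 are the ligands best known for recruiting precursors to the fat lineage, and both were low in every group. Bmp4 (ENSMUSG00000021835, chromosome 14 at 46383520 to 46390669, minus strand) had 3, 4 and 3 counts in MIZ cells, 1, 3 and 3 counts in vehicle cells and 93, 86 and 125 counts in undifferentiated cells. Every differentiated library was thus at or below 0.109 CPM, against 1.93 to 2.13 CPM in undifferentiated cells. As a description, fitted levels were 33.3-fold lower in vehicle cells (-5.06 ± 0.264) and 22.9-fold lower in MIZ cells (-4.52 ± 0.247) than in undifferentiated cells, through which alone the gene passed the filter. A difference between MIZ and vehicle cells was not detectable at this depth (adjusted p = 0.479). Summed markers of other cells were also lower. The 10 preadipocyte and fibroblast markers summed to 7570 to 9660 CPM in MIZ, 6090 to 6960 CPM in vehicle and 20700 to 23000 CPM in undifferentiated cells. Most of this sum was Col1a1 and Col3a1 (13900 and 6500 CPM in undifferentiated cells). The 8 endothelial markers summed to 5.24 to 5.59, 8.65 to 10.7 and 79.8 to 102 CPM in the same order of groups. Vwf held most of the undifferentiated sum (64.8 CPM). In the preadipocyte list 10 of 10 genes and in the endothelial list 6 of the 7 tested were lower in vehicle than in undifferentiated cells. Of all genes tested, 41.5% were lower in that comparison. Between MIZ and undifferentiated cells, 7 preadipocyte markers were lower and 2 higher, and 5 endothelial markers were lower and 0 higher. Of all genes tested, 33.3% were lower and 33.7% higher there. No marker of the preadipocyte and endothelial lists was at 0 in all groups, and the part of these markers in the result was not tested. In such bulk samples, fewer cells of a type and less RNA per cell cannot be told apart.

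Bmp2 (ENSMUSG00000027358, chromosome 2 at 133552159 to 133562885, plus strand) had 9, 4 and 7 counts in MIZ cells, 13, 18 and 29 counts in vehicle cells and 19, 14 and 22 counts in undifferentiated cells. At 0.109 to 0.207 CPM, the MIZ libraries lay below all 6 others. MIZ cells were 2.88-fold below vehicle cells (95% interval 1.68 to 4.94, log2 fold change -1.53 ± 0.351, adjusted p = 0.00241). They were 2.13-fold below undifferentiated cells (-1.09 ± 0.356, adjusted p = 0.019), a call that was lost without undifferentiated replicate 1 (-0.99, adjusted p = 0.054) and without MIZ replicate 2 (-0.85, adjusted p = 0.0716), where the other alternatives gave adjusted p of 0.0158 to 0.0471. Vehicle and undifferentiated cells overlapped (adjusted p = 0.195).

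Bmp7 (ENSMUSG00000008999, chromosome 2 at 172868012 to 172940321, minus strand) was not detectable beyond stray reads. It had 0 counts in MIZ cells, 1 count in 1 vehicle library and 1 count in 1 undifferentiated library. The 0 counts among the 112262901 of MIZ cells allow a level of up to 0.0267 CPM (3 counts over the group, without TMM factors, counting error only).

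Bmp8b (ENSMUSG00000002384, chromosome 4 at 123105165 to 123132099, plus strand) had 10, 1 and 12 counts in MIZ cells, 2, 5 and 0 counts in vehicle cells and 1, 0 and 0 counts in undifferentiated cells. The groups overlapped between MIZ and vehicle cells, since MIZ replicate 2 had 1 count. From the summed counts, MIZ cells were at 3.38 times the level of vehicle cells (95% exact interval 1.41 to 9.34, counting error only), while the edgeR test across libraries did not call the difference (1.71 ± 0.907, adjusted p = 0.114). Without MIZ replicate 2 it was called (2.21, adjusted p = 0.0273), and without vehicle replicate 3 the log2 fold change was 1.04 (adjusted p = 0.297), with 0.101 to 0.219 under the other alternatives. Against the 1 count of undifferentiated cells, the ratio of MIZ cells was 29.5 with an exact interval of 4.79 to 1210, which is a description, since the gene passed the filter only through differentiated libraries.

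The neighbouring gene Bmp8a is a near copy of Bmp8b, and reads from stretches that both share can be counted for neither or for the wrong one. Their coding sequences aligned over 1239 positions with 85.2% identity (GENCODE vM21), and 109 of the 3781 windows of 100 bases in Bmp8b transcripts (2.88%) occur unchanged in Bmp8a transcripts. The last 90 coding bases before the stop codon show the density of differences that separate their reads, with the 16 differing bases in capitals.
Bmp8b: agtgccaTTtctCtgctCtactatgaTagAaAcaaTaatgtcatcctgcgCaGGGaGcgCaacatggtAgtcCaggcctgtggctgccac
Bmp8a: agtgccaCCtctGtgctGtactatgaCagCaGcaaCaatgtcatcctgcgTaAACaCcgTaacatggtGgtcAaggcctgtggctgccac
Bmp8a had 91 counts in MIZ cells, 95 in vehicle cells and 36 in undifferentiated cells. It was not called between MIZ and vehicle cells (0.01 ± 0.31, adjusted p = 0.975), and it was higher in both differentiated groups than in undifferentiated cells (1.67 ± 0.356 for MIZ, 1.66 ± 0.355 for vehicle). Exons of Bmp8b also overlap those of Ppie on the opposite strand over 133 bases (3.43% of its exon length), and the strand setting of the counting is not stated. No other gene of the 10 shared more than 0.07% of its 100-base windows with another gene.

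Among the ligand genes with Bmp symbols, a different gene led in MIZ and in vehicle cells. Over 10 BMP genes (Bmp2 to Bmp7, Bmp8a, Bmp8b, Bmp10 and Bmp15), the summed level was 3.61 ± 0.386 CPM per kb in MIZ cells, 4.80 ± 0.892 in vehicle cells and 3.66 ± 0.249 in undifferentiated cells (SD, n = 3). Bmp6, a ligand known for iron-dependent signalling in liver, made up 82.1% ± 3.03 of it in MIZ cells, 8.22% ± 1.35 in vehicle cells and 27.0% ± 1.26 in undifferentiated cells. Bmp3, which is known as an antagonist among the BMPs, made up 4.60% ± 1.14 in MIZ cells, 80.8% ± 3.95 in vehicle cells and 40.8% ± 2.61 in undifferentiated cells. Bmp4 made up 1.10% ± 0.293 in MIZ cells, 0.549% ± 0.228 in vehicle cells and 25.1% ± 1.14 in undifferentiated cells.

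No library of one group overlapped another group in the shares of Bmp3 and Bmp6. With 3 libraries against 3, an exact two-sided permutation test cannot go below p = 0.1, and each pair of groups reached that for both shares. Of the shares, only these were tested, the largest in vehicle and in MIZ cells. Both are parts of the same total, so they are not independent results. In the test across genes, Bmp6 was 7.70-fold higher in MIZ than in vehicle cells (2.94 ± 0.198) and Bmp3 23.9-fold lower (-4.58 ± 0.193). Exons of Bmp6 overlap those of Txndc5, a far more abundant gene (100271 counts), on the opposite strand over 5.74% of their length. The summed level was higher in every vehicle library than in the others (exact permutation p = 0.1 against either group), and MIZ and undifferentiated cells overlapped (exact permutation p = 1.0).

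**Figure D2:**
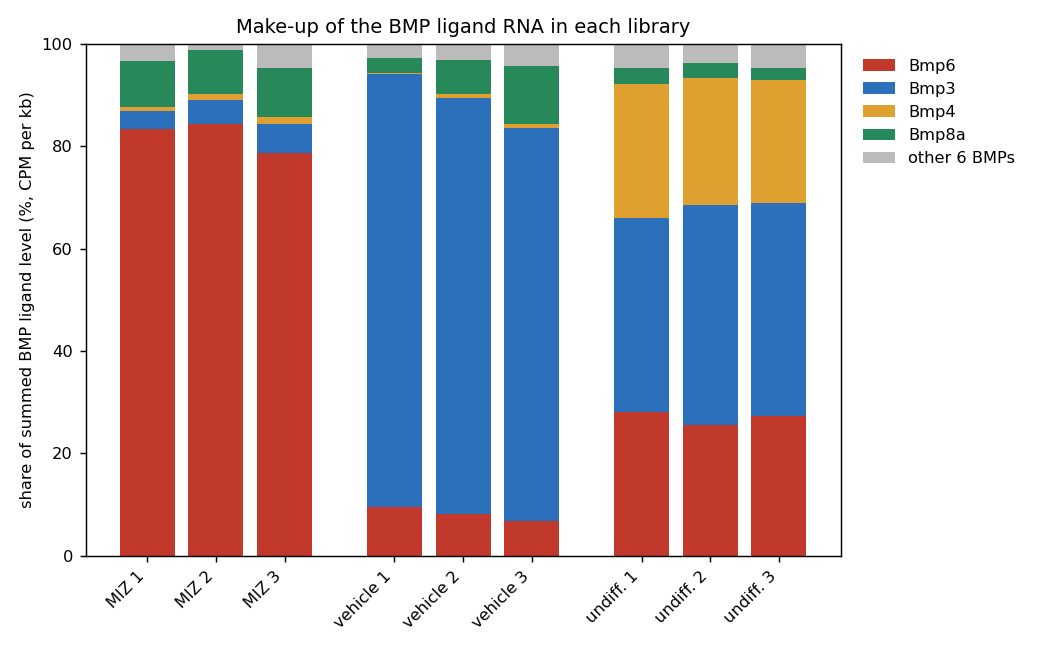
Share of each BMP in the summed level of 10 BMP genes (y axis, percent of CPM per kb of exon) in each of the 9 libraries, grouped as MIZ, vehicle and undifferentiated. Bmp6 takes 78.7% to 84.4% in the MIZ libraries and Bmp3 takes 76.7% to 84.5% in the vehicle libraries, while Bmp4 takes 24.1% to 26.3% in the undifferentiated libraries.

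Bmpr1a and Bmpr2 code for a type I and a type II receptor that bind BMPs together. Bmpr2 (ENSMUSG00000067336, chromosome 1 at 59763400 to 59879014, plus strand) stood at 383, 390 and 381 CPM in MIZ cells, 193, 194 and 189 CPM in vehicle cells and 261, 272 and 255 CPM in undifferentiated cells. All 3 groups were apart, with MIZ cells highest. MIZ cells were 2.00-fold above vehicle cells (95% interval 1.88 to 2.14, log2 fold change 1.00 ± 0.0418, adjusted p = 3.1e-09) and 1.47-fold above undifferentiated cells (0.55 ± 0.0414, adjusted p = 6.1e-07), while vehicle cells were 1.37-fold below undifferentiated cells (-0.45 ± 0.0415).

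Bmpr1a (ENSMUSG00000021796, chromosome 14 at 34410734 to 34503341, minus strand) had the same order of groups with smaller distances. Its levels were 155, 154 and 155 CPM in MIZ cells, 120, 116 and 108 CPM in vehicle cells and 137, 130 and 131 CPM in undifferentiated cells. The groups did not overlap. The log2 fold change was 0.43 ± 0.0459 between MIZ and vehicle cells (1.35-fold, adjusted p = 7.4e-06), 0.23 ± 0.0457 between MIZ and undifferentiated cells (adjusted p = 0.0012) and -0.21 ± 0.0458 between vehicle and undifferentiated cells (adjusted p = 0.00168). An antisense gene, Gm17110, overlaps 4.57% of the exon length of Bmpr1a and had 298 counts in all libraries together, against 13471 or more for Bmpr1a in each group.

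Acvr1c had the largest differences of the 10 genes in all 3 comparisons. The gene (ENSMUSG00000026834, chromosome 2 at 58267453 to 58357895, minus strand) had 114, 131 and 193 counts in MIZ cells, 3343, 4912 and 4667 counts in vehicle cells and 0, 2 and 9 counts in undifferentiated cells, which is 2.58 to 5.71 CPM, 104 to 125 CPM and 0 to 0.154 CPM. MIZ cells were 28.8-fold below vehicle cells (95% interval 20.2 to 40.9, log2 fold change -4.85 ± 0.229, adjusted p = 8.44e-09), and no library of either group came near the other. As a description, both were above undifferentiated cells (5.64 ± 0.524 for MIZ and 10.49 ± 0.37 for vehicle), since the gene passed the filter only through differentiated libraries. The size of those last differences rested on undifferentiated replicate 3, which held 9 of the 11 counts, and without it they were 7.23 and 12.07.

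Of the 8 adipocyte markers, 7 passed the filter (Lep did not). All 7 were lower in MIZ than in vehicle cells and higher in vehicle than in undifferentiated cells, as Acvr1c was, with the summed levels given above. Of all genes tested, 35.1% were lower in the first comparison and 36.2% higher in the second. The part of the adipocyte markers in the result was not tested.

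The other receptors of the family give the setting of these 3. Per kb of exon, the type I receptor levels in MIZ cells were 25.4 ± 1.03 CPM for Acvrl1, 24.4 ± 0.0753 for Bmpr1a, 14.6 ± 1.13 for Acvr1b, 11.5 ± 0.163 for Acvr1, 1.97 ± 0.371 for Bmpr1b and 0.425 ± 0.172 for Acvr1c. In vehicle cells Bmpr1a (18.1 ± 0.912) and Acvr1b (16.8 ± 1.22) came first, with overlapping ranges, and Acvr1c (12.0 ± 1.29) came next, above Acvrl1 (10.1 ± 0.594), Acvr1 (3.81 ± 0.133) and Bmpr1b (0.379 ± 0.198). In undifferentiated cells Bmpr1a (20.8 ± 0.601) was highest and Acvr1c (0.00712 ± 0.00850) lowest. Acvr1b, the usual type I receptor of activin, was 1.16-fold lower in MIZ than in vehicle cells (-0.21 ± 0.0657), with libraries that overlapped. Of the type II receptors, Bmpr2 was highest per kb in MIZ cells (21.4 ± 0.242) and in vehicle cells (10.7 ± 0.164), and Acvr2a, which binds activins and BMPs, in undifferentiated cells (22.1 ± 0.317, against 14.6 ± 0.497 for Bmpr2). Exons of Acvr2a overlap those of Orc4 on the opposite strand over 7.84% of their length, and Orc4 had 14322 counts.

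**Figure D3:**
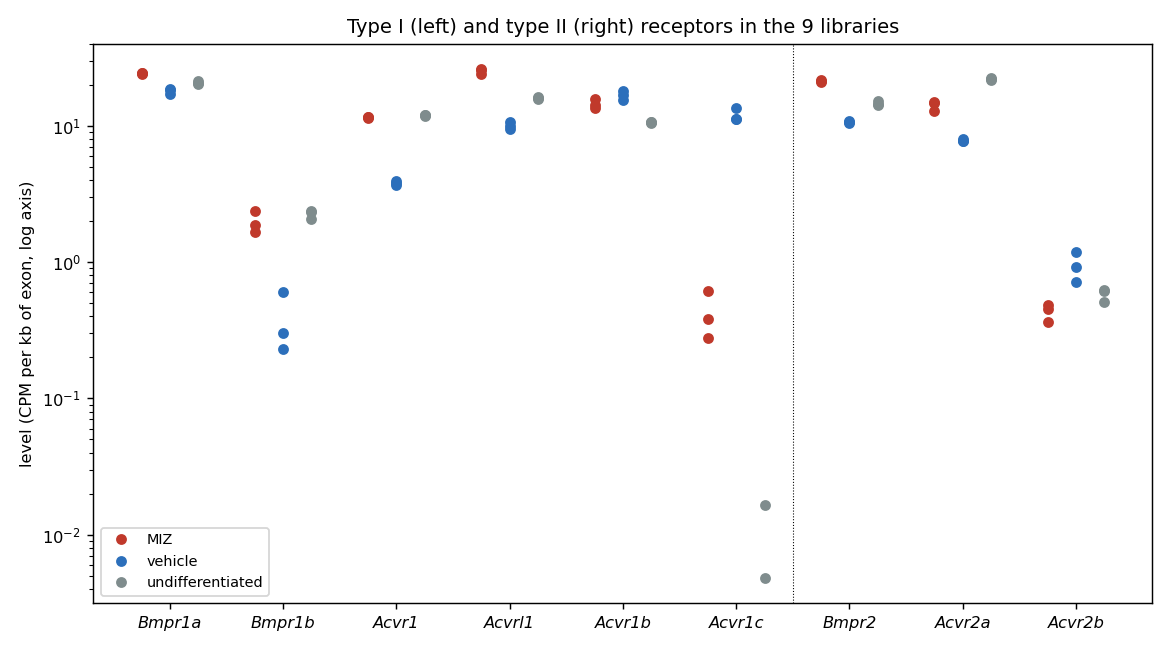
Level of 6 type I and 3 type II receptors (y axis, CPM per kb of exon, log axis) in the 9 libraries of MIZ, vehicle and undifferentiated cells (points). Acvr1c lies between 0.278 and 0.614 CPM per kb in MIZ cells and between 11.2 and 13.5 in vehicle cells, and its undifferentiated library with 0 counts is not drawn.

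Grem1 codes for gremlin, which binds BMP2, BMP4 and BMP7 outside the cell and keeps them from their receptors. The gene (ENSMUSG00000074934, chromosome 2 at 113746164 to 113758646, minus strand) stood at 77.8, 102 and 89.9 CPM in MIZ cells, 78.8, 94.9 and 61.3 CPM in vehicle cells and 44.3, 38.6 and 46.3 CPM in undifferentiated cells. Both differentiated groups overlapped each other and lay above all undifferentiated libraries. Vehicle cells were 1.82-fold (0.86 ± 0.148, adjusted p = 0.000265) and MIZ cells 2.08-fold (1.06 ± 0.148, adjusted p = 7.89e-05) above undifferentiated cells. Between MIZ and vehicle cells the log2 fold change was 0.20 (95% interval -0.13 to 0.52, adjusted p = 0.245), and it was called only without vehicle replicate 2 (0.35, adjusted p = 0.0439, against 0.122 to 0.855 under the other alternatives).

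Id1, a direct target of SMAD1 and SMAD5, codes for an inhibitor of bHLH transcription factors. The gene (ENSMUSG00000042745, chromosome 2 at 152736251 to 152737410, plus strand) stood at 25.3, 27.0 and 23.3 CPM in MIZ cells, 12.4, 14.7 and 17.2 CPM in vehicle cells and 15.8, 14.7 and 14.5 CPM in undifferentiated cells. Every MIZ library lay above every other library. MIZ cells were 1.69-fold above vehicle cells (95% interval 1.44 to 1.99, log2 fold change 0.76 ± 0.106, adjusted p = 6.5e-05) and 1.68-fold above undifferentiated cells (0.75 ± 0.104, adjusted p = 8.2e-05). Vehicle and undifferentiated cells overlapped, with a difference near 0 (95% interval -0.25 to 0.22, adjusted p = 0.909) whose sign changed with the scaling.

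The other Id genes did not share this order. Id3 stood at 67.0 CPM in MIZ cells, 46.7 CPM in vehicle cells and 72.4 CPM in undifferentiated cells, Id2 at 32.7, 29.5 and 60.8 CPM and Id4 at 2.47, 0.977 and 16.3 CPM in the same groups. MIZ cells were above vehicle cells for Id3 (0.52 ± 0.0573, adjusted p = 9.7e-06) and Id4 (1.36 ± 0.208, adjusted p = 0.000137), and Id2 was not called (0.15 ± 0.0776, adjusted p = 0.11). Id2 and Id4 were below undifferentiated cells in MIZ cells, where Id1 was above them. These 3 were chosen after their values were seen.

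Among themselves, the 10 genes thus fell into several orders of the 3 groups. Inhba, Bmpr1a and Bmpr2 were highest in MIZ and lowest in vehicle cells. Acvr1c had the opposite extreme, with its peak in vehicle cells. Bmp4 was far higher in undifferentiated cells than in either other group, Grem1 was higher in both differentiated groups, and Id1 was higher in MIZ cells than in both other groups. Over the 9 libraries, log2 CPM of Bmpr1a and Bmpr2 correlated with r = 0.98, and that of Inhba with r = 0.94 for either, while Acvr1c had r = -0.69 with Inhba. These coefficients describe 9 libraries in 3 groups.

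Per kb of exon, Bmpr1a (24.4 CPM), Inhba (23.1), Id1 (21.7), Grem1 (21.7) and Bmpr2 (21.4) led in MIZ cells, each with a range that overlapped its neighbour in that order. Acvr1c (0.425) and the BMP ligands (under 0.1) followed far below. In vehicle cells the order was Grem1 (18.9), Bmpr1a (18.1), Id1 (12.7), Acvr1c (12.0), Bmpr2 (10.7) and Inhba (3.70), with overlapping ranges between Grem1 and both Bmpr1a and Id1, and between Id1 and both Acvr1c and Bmpr2. In undifferentiated cells it was Bmpr1a (20.8), Bmpr2 (14.6), Inhba (14.5), Id1 (13.0), Grem1 (10.4) and Bmp4 (0.916), and Bmpr2 and Inhba overlapped.

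**Figure D4:**
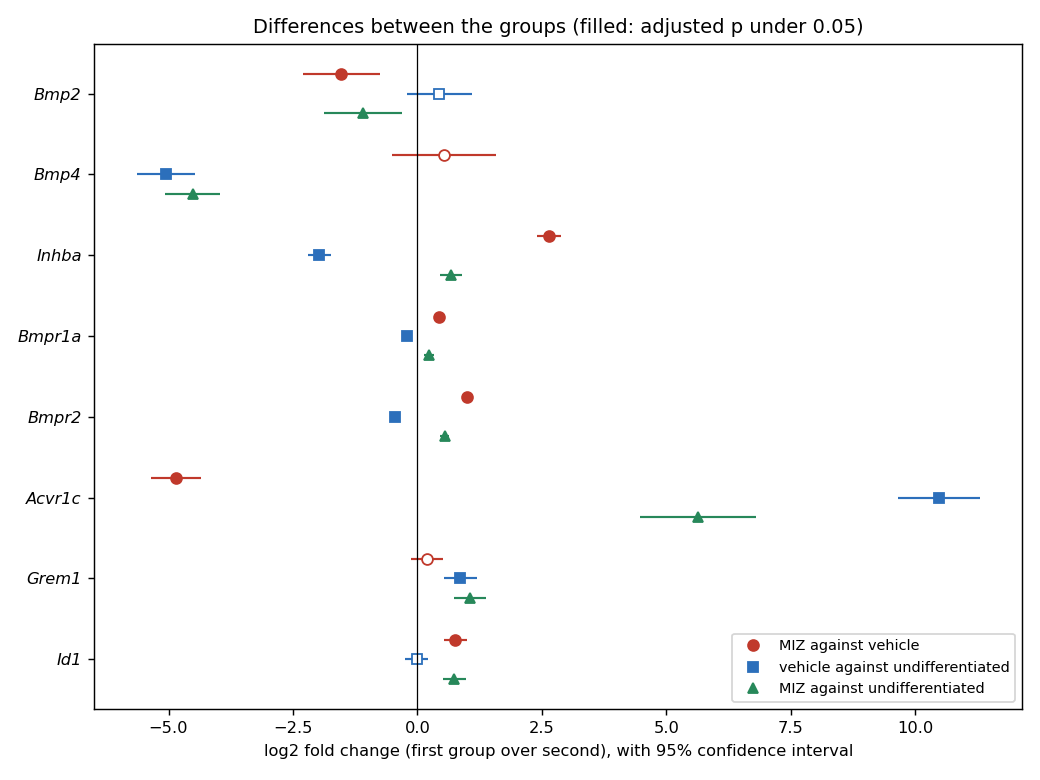
Log2 fold changes (x axis) with 95% confidence intervals for 8 of the genes in the comparisons MIZ against vehicle, vehicle against undifferentiated and MIZ against undifferentiated, from edgeR over 9 libraries. Filled symbols are called (adjusted p under 0.05), where those of Bmp4 and Acvr1c against undifferentiated cells are a description. For MIZ cells, Inhba, Bmpr1a and Bmpr2 lie above 0 against vehicle cells and again above 0 against undifferentiated cells. Bmp8b is left out because of its 1 count in undifferentiated cells.

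Genes of like pattern were sought among 11774 genes with a group mean of 5 CPM or more. Closest to Inhba were Schip1 (r = 0.998 over 9 libraries), Clint1 and Ccn4 (both 0.997). Ccn4, a secreted matricellular protein of the CCN family, stood at 700.0 CPM in MIZ cells, 22.4 CPM in vehicle cells and 269 CPM in undifferentiated cells. Closest to Bmpr2 were Arid5b (0.998), Hs2st1 (0.997) and Pcdhgc5 (0.997), to Bmpr1a Ecscr (0.998), Fndc3b (0.996) and Fzd3 (0.995), and to Bmp4 Chaf1b (0.999), Armc10 (0.997) and Cilp (0.996). Closest to Acvr1c were Hcar2 (0.998), which codes for an antilipolytic receptor of adipocytes, Tmem182 (0.996) and C130074G19Rik (0.995). Id1 was most like Ngfr (0.989), Fbxo38 (0.985) and Fgf5 (0.982), and genes of like pattern to Grem1 included Polr2l and Entpd6 (0.966 each). The number of genes with r of at least 0.95 was 1078 for Acvr1c, 871 for Bmp4, 832 for Inhba, 643 for Bmpr2, 456 for Bmpr1a, 78 for Id1 and 9 for Grem1.

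The rest of the pathway was described with 6 lists of 99 symbols, of which 97 were found and 75 passed the filter. Of these 75, 45 were higher and 15 lower in MIZ than in vehicle cells (60% and 20%, against 35.9% and 35.1% of all genes tested, with a median log2 fold change of 0.68, against 0.02 over all genes). Between vehicle and undifferentiated cells 16 were higher and 48 lower (21.3% and 64.0%, against 36.2% and 41.5% of all genes, median -0.71, against -0.08 over all genes), and between MIZ and undifferentiated cells 27 were higher and 26 lower (36.0% and 34.7%, against 33.7% and 33.3% of all genes, median -0.03, against -0.00125 over all genes). The lists were chosen with earlier results of these data known, so their counts and medians are a description. Msx2 passed the filter only through MIZ libraries, Dlx5 only with its undifferentiated libraries, and Gdf5 and Dlx3 only with their differentiated libraries. Calls of Msx2 in MIZ cells, and of Dlx5, Gdf5 and Dlx3 against undifferentiated cells, are therefore a description. The genes named next are those with the largest changes between MIZ and vehicle cells in each list, so their folds in that comparison are a description.

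Of 13 ligands, 5 were higher and 4 lower in MIZ than in vehicle cells (38.5% and 30.8%), close to the 35.9% and 35.1% over all genes. Inhbb (4.04), Gdf6 (3.80 ± 0.319), a BMP of joint and skeletal patterning, and Bmp6 (2.94) led upward, and Bmp3 (-4.58), Inha (-1.43) and Gdf9 (-0.82 ± 0.219), a ligand of the oocyte, downward. Of 12 receptors and co-receptors 8 were higher and 2 lower (66.7% and 16.7%, against 35.9% and 35.1% of all genes). Bmpr1b (2.46 ± 0.265), endoglin (Eng, 2.24 ± 0.0856), a co-receptor for BMP9, and Acvr1 (1.60 ± 0.0456), a type I BMP receptor, were higher, and Acvr2b (-1.12 ± 0.198) and Acvr1b (-0.21) lower. Acvr1 stood at 55.7 CPM in MIZ cells, 18.4 CPM in vehicle cells and 58.0 CPM in undifferentiated cells. Endothelial markers, which Eng belongs with in tissue, were low in both groups (summed 5.24 to 5.59 CPM in MIZ and 8.65 to 10.7 CPM in vehicle cells). Of the 7 tested, 0 were higher and 3 lower in MIZ than in vehicle cells (against 35.9% and 35.1% of all genes). The part of these markers in the level of Eng was not tested.

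Of 16 secreted inhibitors and ligand-binding proteins, 7 were higher and 4 lower in MIZ than in vehicle cells (43.8% and 25%, against 35.9% and 35.1% of all genes). The largest rises were those of Crim1 (2.89 ± 0.0754), which binds BMPs at the cell surface, Fstl1 (2.63 ± 0.0832), a secreted follistatin-like protein, and Nbl1 (2.62 ± 0.109), a gremlin-family antagonist. Fstl1 reached 2339 CPM in MIZ cells, against 378 CPM in vehicle cells and 1810 CPM in undifferentiated cells. The largest falls were those of the BMP antagonists Chrdl1 (-4.16 ± 0.149), Nog (-1.37 ± 0.239) and Chrd (-1.14 ± 0.142). Chrdl1, or chordin-like 1, averaged 1.47 CPM in MIZ cells, 26.0 CPM in vehicle cells and 3.90 CPM in undifferentiated cells. Of the activin-binding proteins, chosen here after their values were seen, Fstl3 averaged 61.2 CPM in MIZ cells, 12.6 CPM in vehicle cells and 12.8 CPM in undifferentiated cells, and follistatin (Fst) 56.3, 50.2 and 61.2 CPM. Exons of Fstl3 overlap those of Prss57 on the opposite strand over 47.3% of their length, and Prss57 had 44 counts in all.

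Of 6 proteases that process ligands or inhibitors, 4 were higher and 1 lower in MIZ than in vehicle cells (66.7% and 16.7%, against 35.9% and 35.1% of all genes). Bmp1 (2.80 ± 0.0523), which cleaves chordin and procollagen, Tll1 (2.17 ± 0.139), a relative of Bmp1, and Furin (0.63 ± 0.044), which matures TGF-β family ligands, were higher, and Pcsk5 (-1.52 ± 0.0861), another proprotein convertase, lower. Bmp1 averaged 455 CPM in MIZ cells, 65.3 CPM in vehicle cells and 237 CPM in undifferentiated cells.

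Of 16 SMADs and SMAD regulators, 13 were higher and 2 lower in MIZ than in vehicle cells (81.2% and 12.5%, against 35.9% and 35.1% of all genes). Zfp521 (2.85 ± 0.0752), a zinc-finger protein that opposes adipogenesis, Pmepa1 (2.09 ± 0.0643), which dampens activin-type SMAD signalling, and Smad3 (1.38 ± 0.0646) were higher, and Zfp423 (-2.64 ± 0.0792), a SMAD cofactor of preadipocyte commitment, and the ubiquitin ligase Smurf1 (-0.25 ± 0.0455) lower. Zfp521 stood at 73.7 CPM in MIZ cells, 10.1 CPM in vehicle cells and 175 CPM in undifferentiated cells, and Zfp423 at 9.04, 56.3 and 9.44 CPM. Of 12 target genes, 8 were higher and 2 lower in MIZ than in vehicle cells (66.7% and 16.7%, against 35.9% and 35.1% of all genes). Msx2, among the higher genes, passed the filter only through MIZ libraries, so its call is a description. Gata2 (2.98 ± 0.13), a factor of preadipocytes, Atoh8 (2.94 ± 0.0982), a bHLH factor, and Msx1 (2.66 ± 0.28), a homeobox factor, were higher, and Dlx3 (-2.05 ± 0.403), another homeobox factor, lower. Gata2 averaged 6.73 CPM in MIZ cells, 0.875 CPM in vehicle cells and 6.85 CPM in undifferentiated cells.

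**Figure D5:**
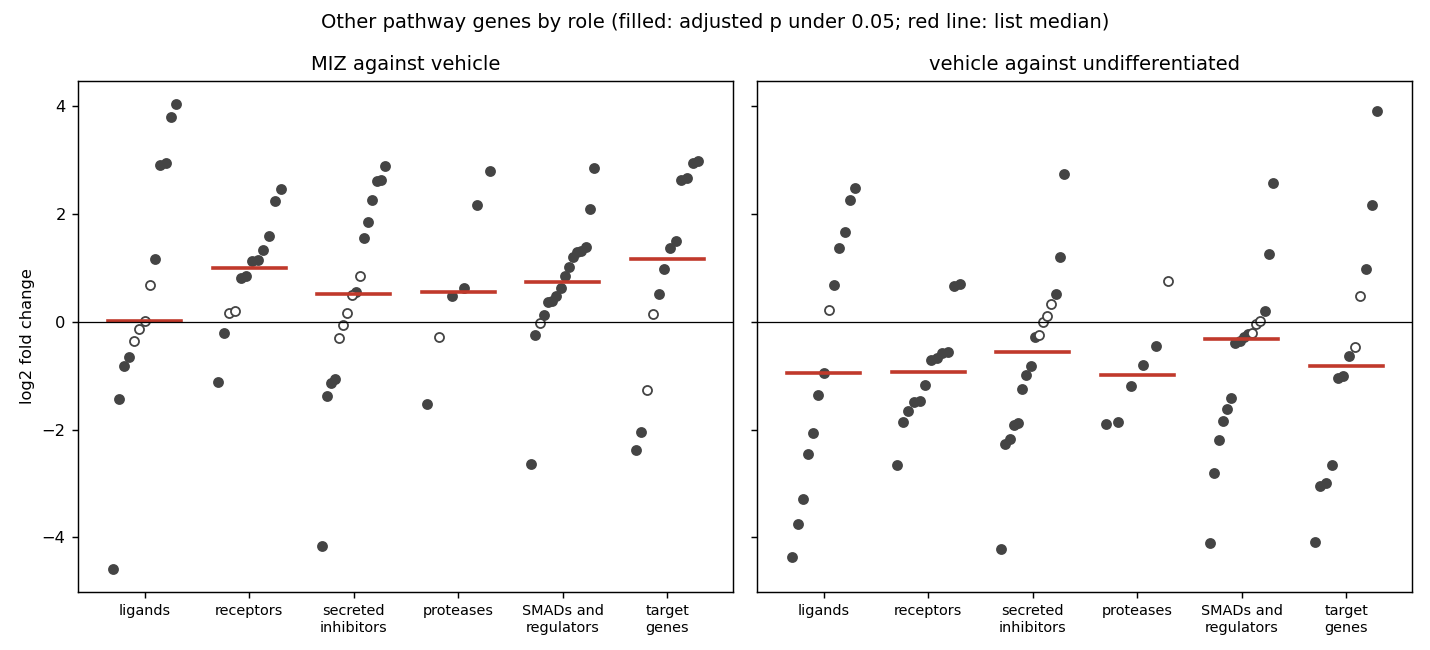
Log2 fold changes (y axis) of 75 other pathway genes in 6 lists, for MIZ against vehicle (left) and vehicle against undifferentiated (right), with called genes filled and the list median as a line. In the receptor list the median is 0.99 on the left and -0.94 on the right, and in the SMAD list it is 0.74 and -0.32.

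Markers of other cells moved between the groups as well. Their calls between MIZ and vehicle cells stand beside 35.9% higher and 35.1% lower of all genes tested. Of 8 smooth muscle and pericyte markers 6 were higher and 1 lower in MIZ than in vehicle cells, and the list summed to 6610 to 8670 CPM in MIZ cells, 195 to 234 CPM in vehicle cells and 770 to 911 CPM in undifferentiated cells. Acta2, the smooth muscle actin that fibroblasts also make, averaged 3620 CPM in MIZ cells, 34.6 CPM in vehicle cells and 422 CPM in undifferentiated cells. This is the order of groups that Inhba and Inhbb had. Cspg4 went the other way between MIZ and vehicle cells (12.5 against 63.3 CPM). Of the preadipocyte and fibroblast markers 5 of 10 were higher and 2 lower in MIZ than in vehicle cells. Macrophage and leukocyte markers summed to 898 to 1240 CPM in MIZ cells, 460 to 855 CPM in vehicle cells and 3610 to 3720 CPM in undifferentiated cells. Lyz2 held most of the undifferentiated sum (2420 CPM). Adgre1 was highest in MIZ cells, at 399 CPM against 191 CPM in vehicle and 230 CPM in undifferentiated cells. Of the 6 tested, 2 were higher and none lower in MIZ than in vehicle cells, and the T cell marker Cd3e was at 0 in every library. Schwann cell markers, which stand beside Id1 because Ngfr had the most similar pattern, summed to 24.5 to 37.6, 13.0 to 14.7 and 16.6 to 20.8 CPM in the same groups, with 2 of 4 higher and 1 lower in MIZ than in vehicle cells. Mesothelial markers summed to 10.1 to 11.7 CPM in MIZ cells, 12.5 to 16.6 CPM in vehicle cells and 3.32 to 3.45 CPM in undifferentiated cells. Skeletal muscle markers summed to 35.6 to 61.8, 1.24 to 1.73 and 3.33 to 3.77 CPM in these groups, nearly all of it Acta1, with Myf5 at 0 throughout, and erythroid markers stayed at or below 0.0512 CPM. The part of these cells in the results was not tested.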

How the data were processed

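RNA of 9 libraries (3 per group) was analysed. The deposited values are raw counts, which the authors did not normalize, in a separate table for each library (32285 Ensembl identifiers, 32158 matched to a symbol). By the methods, ribosomal RNA was depleted and mRNA then selected by its poly-A tail. By the methods and labels, reads were trimmed with Trim Galore 0.6.7 and aligned with STAR to GRCm38. The methods name STAR's own counting and the labels name HTSeq, and neither gives the annotation release or the strand setting, so reads of overlapping antisense genes cannot be told apart. The filter (5 or more counts in 3 or more libraries) left out 15112 genes. A single edgeR quasi-likelihood fit with TMM factors held all 9 libraries (R 4.3.3, edgeR 4.0.16, limma 3.58.1, biological coefficient of variation 0.0806). Adjusted p-values are Benjamini-Hochberg over all 17173 genes tested. Standard errors come from the F statistics, and exact intervals and limits from counts cover counting error only. Log2 CPM used a prior count of 2, and exon lengths are merged GENCODE vM21 exons (GRCm38).

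The genes, the pathway lists and the marker lists were chosen with earlier results of these data known. All 10 genes were named, as were in each list up to 3 rises and 3 falls that were largest between MIZ and vehicle cells (called, with a group mean of 1 CPM or more), Bmp8a, the 3 genes of most similar pattern for each gene of at least 1 CPM, and markers at 0 or moving with a group. A gene that this rule named for Grem1 is not reported here. Precision was judged from the 3 libraries per group, and the model was tested on simulated data. DESeq2 1.42.0, other scalings and filters, a replicate block, fits of 6 libraries and the omission of single libraries were the alternatives. Sequences were compared with blastn 2.17.0, and figures drawn with Python 3.11.15 and matplotlib 3.10.9. The other assays of the study were not analysed here.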

Additional observations from a re-analysis of the deposited data

How the results depend on the processing

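The log2 fold changes of the 9 tested genes and the numbers of calls were recomputed under up to 17 alternatives, 9 of which left out 1 library, and the shares of Bmp3 and Bmp6 under fewer. The fold changes of single pathway genes and the levels per kb were not recomputed. Over 435 recomputed fold changes, 425 kept their direction and side of the threshold. The number of the 10 genes called was 6 to 7 for MIZ against vehicle, 5 to 6 for vehicle against undifferentiated and 7 to 9 for MIZ against undifferentiated cells over all alternatives, and that of pathway genes called 59 to 63, 63 to 65 and 51 to 57 of the 74 or 75 tested (60, 67 and 54 of 92 with no filter). Missing the filter, Bmp4 gave no value without any 1 undifferentiated library or, for MIZ against vehicle, with only the 6 libraries compared. For the same reason Bmp8b gave none under filterByExpr or without MIZ replicate 1, MIZ replicate 3 or vehicle replicate 2, nor against undifferentiated cells with only the 6 libraries compared. The log2 fold change of Id1 between vehicle and undifferentiated cells, near 0, changed sign with DESeq2 size factors (0.0318), with DESeq2's Wald test (0.0301) and with only the 6 libraries compared (0.0404), and ranged from -0.1249 to 0.0947 when each library was left out in turn. When levels were not divided by exon length, the share of Bmp3 was 8.72% in MIZ, 90.5% in vehicle and 62.1% in undifferentiated cells, and that of Bmp6 4.84% in vehicle and 21.7% in undifferentiated cells. The cause was not tested, apart from the exon lengths that this alternative leaves out. Over all genes, replicate numbers showed no sign of pairing: deviations of same-numbered libraries correlated at -0.0447 to 0.063, and those of unlike numbers at -0.0544 to 0.0681. Such correlations cannot show whether same-numbered libraries share an animal or a batch. A replicate block gave 6, 6 and 9 called genes of the 10, and a log2 fold change of 2.64 for Inhba and -4.86 for Acvr1c between MIZ and vehicle cells. Other scalings moved the median of all genes by at most 0.0741 on the log2 scale. Depth limits Bmp2, Bmp4, Bmp7 and Bmp8b, which had under 30 counts in every differentiated library.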
